A study of Mus musculus with 12 samples.

Results

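Adipocytes are the fat-storing cells of the body, and some lie between the fibre bundles and on the surface of every skeletal muscle, so that a piece of muscle can carry their RNA. They hold triacylglycerol in a lipid droplet, whose coat proteins decide when lipases can reach it, and they secrete hormones called adipokines. Brown and beige adipocytes burn fat in mitochondria and carry a protein set of their own. The 9 genes described here are the adipokine genes Adipoq, Retn, Cfd and Lep, the lipid-handling genes Plin1, Cidec and Fabp4, and the brown and beige adipocyte genes Cidea and Ucp1. They were chosen by their symbol in the deposited table of array signals, in which each of the 9 had 1 row among 22206 transcripts.

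The mice were male C57BL/6J, bought at 19 weeks of age and kept 2 to a cage, and their age is given as 6.5 months. For 6 weeks they were fed a semi-synthetic diet with adequate phosphorus, 0.3% (P0.3 group), or high phosphorus, 1.2% (P1.2 group). Potassium dihydrogen phosphate was the added phosphorus in both diets, and the P0.3 diet alone held potassium bicarbonate, which evened out the potassium, so that effects of the phosphorus and of the bicarbonate cannot be told apart. From 12 mice per diet, 6 were drawn at random, and the RNA of an aliquot of their M. gastrocnemius, a calf muscle, was measured on an array of its own (Clariom S, mouse). The labels do not say which mice shared a cage. A signal is a value on a log2 scale, so that a difference of 1 stands for a factor of 2, and differences were taken within a gene across arrays. Where a signal is set beside those of other transcripts, this describes the brightness of its probes and not how much RNA there was.

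The pieces were muscle by their markers: 8 skeletal muscle fibre genes, such as Acta1 and Ckm, had mean signals of 17.41 to 19.93. Transcripts of 1451 olfactory and vomeronasal receptors, which work in the nose, served as the level of dim transcripts, and 95% of them had a mean signal below 6.11. Of the 9 adipocyte genes, Adipoq, Retn, Cfd, Cidec and Fabp4 lay above this receptor level, and Lep, Plin1, Cidea and Ucp1 did not. P1.2 replicates 6 and 12 stood apart in the metallothionein gene Mt2, with signals of 16.68 and 15.73, where the other 10 arrays were at 8.82 to 10.90. Values without these 2 arrays are therefore given beside the results that rest on them.

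The promoters of members whose signals rose and fell together, and of Lep, whose signal did not follow them, are shown first. Windows of 250 bases before the transcription start were taken from RefSeq (GRCm38.p6) for 7 of the 9 genes. Fabp4 and Cidea were not searched. The windows of Retn, Cfd and Ucp1 and a second window of Cidec were searched but are not printed. Capitals mark matches to TTGCNNAA on either strand, a form of the site bound by C/EBP factors, which drive adipocyte differentiation.
Lep (chr6:29059971-29060220, plus strand): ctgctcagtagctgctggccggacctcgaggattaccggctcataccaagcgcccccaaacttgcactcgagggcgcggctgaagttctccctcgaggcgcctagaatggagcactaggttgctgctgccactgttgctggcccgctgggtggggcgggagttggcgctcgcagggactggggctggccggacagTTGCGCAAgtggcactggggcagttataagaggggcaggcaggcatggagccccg
Adipoq (chr16:23146286-23146535, plus strand): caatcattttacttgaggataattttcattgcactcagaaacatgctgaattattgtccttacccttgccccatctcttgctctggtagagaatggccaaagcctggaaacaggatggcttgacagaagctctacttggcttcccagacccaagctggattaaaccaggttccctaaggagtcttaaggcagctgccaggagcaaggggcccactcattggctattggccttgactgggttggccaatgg
Plin1 (chr7:79732777-79733026, minus strand): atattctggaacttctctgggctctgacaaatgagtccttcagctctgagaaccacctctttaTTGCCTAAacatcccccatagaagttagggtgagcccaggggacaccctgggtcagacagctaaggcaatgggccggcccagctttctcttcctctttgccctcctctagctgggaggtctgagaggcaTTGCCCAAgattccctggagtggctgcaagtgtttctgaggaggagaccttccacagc
Cidec (chr6:113434765-113435014, minus strand): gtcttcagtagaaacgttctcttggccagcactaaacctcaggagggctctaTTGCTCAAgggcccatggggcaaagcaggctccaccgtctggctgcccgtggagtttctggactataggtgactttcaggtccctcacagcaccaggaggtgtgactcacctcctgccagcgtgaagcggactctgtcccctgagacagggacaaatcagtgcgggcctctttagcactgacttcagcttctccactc
A match was found for 3 genes: Lep with 1, whose first base lay 55 bases before the start, Plin1 with 2, at 187 and 58 bases, and Cidec with 1, at 198 bases. Cidec has a second start with no match in its window, and none was found for Adipoq, Retn, Cfd and Ucp1. Of all 32851 promoter windows, 9.56% held this motif. A direct repeat of AGGNCA with 1 base between the copies, a form of the site of the adipocyte regulator PPARγ, was searched on both strands and found in 0 of the windows of these 7 genes and in 0.338% of all windows. A match to letters is a description and not a bound site.

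Adipoq encodes adiponectin, an adipokine that raises insulin sensitivity and is made almost only by adipocytes. Its signal was 5.85 at the lowest, 7.36 at the median and 8.24 at the highest on the 6 P0.3 arrays, and 5.62, 7.40 and 8.73 on the 6 P1.2 arrays. The pieces of 1 diet thus lay further apart than the diets, and the lowest and the highest of the 12 arrays, P1.2 replicates 8 and 6, were 8.61-fold apart and both from the high phosphorus group. The group means were 7.25 ± 0.80 (SD, n = 6) and 7.30 ± 1.19 (SD, n = 6), a difference of 0.05 on the log2 scale (standard error 0.47, 95% interval -0.95 to 1.05). A two-sided exact permutation test of the diet labels gave p = 0.922, and the interval of the difference spans about 1 log2 unit in either direction.

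Retn encodes resistin, an adipokine that in mice comes from adipocytes and opposes insulin. Its signal was 4.94, 6.07 and 6.96 (lowest, median and highest) in the P0.3 group and 4.84, 6.40 and 8.23 in the P1.2 group, a range of 10.5-fold over the 12 arrays. Cfd, the gene of adipsin or complement factor D, a serine protease of the complement system that adipocytes secrete, ran from 5.52 over 7.19 to 8.13 in the P0.3 group and from 6.49 over 7.68 to 9.46 in the P1.2 group. This was the widest range of the 9 genes, at 15.3-fold. The lowest signals of Adipoq, Retn and Cfd lay below 6.11, so that the ratios given for these ranges are ratios of signals, and those of the RNA may be larger. For both genes the groups overlapped on most arrays, and P1.2 replicates 6 and 12 were the highest and second highest of all 12. The difference between the diets was 0.40 for Retn (standard error 0.49, exact permutation test, p = 0.524) and 0.76 for Cfd (standard error 0.51, exact permutation test, p = 0.264). Without P1.2 replicates 6 and 12 the differences were -0.25 and 0.06. These 2 arrays also had the highest means of 5 macrophage markers, 8.36 and 8.75, where the other arrays were at 6.92 to 8.11, and of the 6 fibroblast and mesenchymal progenitor markers, 11.10 and 12.20, where the others were at 9.88 to 11.03. The part of either list in the 2 genes was not tested.

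Compared with all transcripts, these 3 adipokine genes were among those that varied most between mice of 1 diet. The SD within diets was 1.02 for Adipoq, 1.06 for Retn and 1.11 for Cfd, and 99.5%, 99.5% and 99.6% of the 22206 transcripts had a smaller one. The median over all transcripts was 0.31. Cidec stood at 0.63, above 96.9% of transcripts, and Lep at 0.28, above 36.7%.

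**Figure D1:**
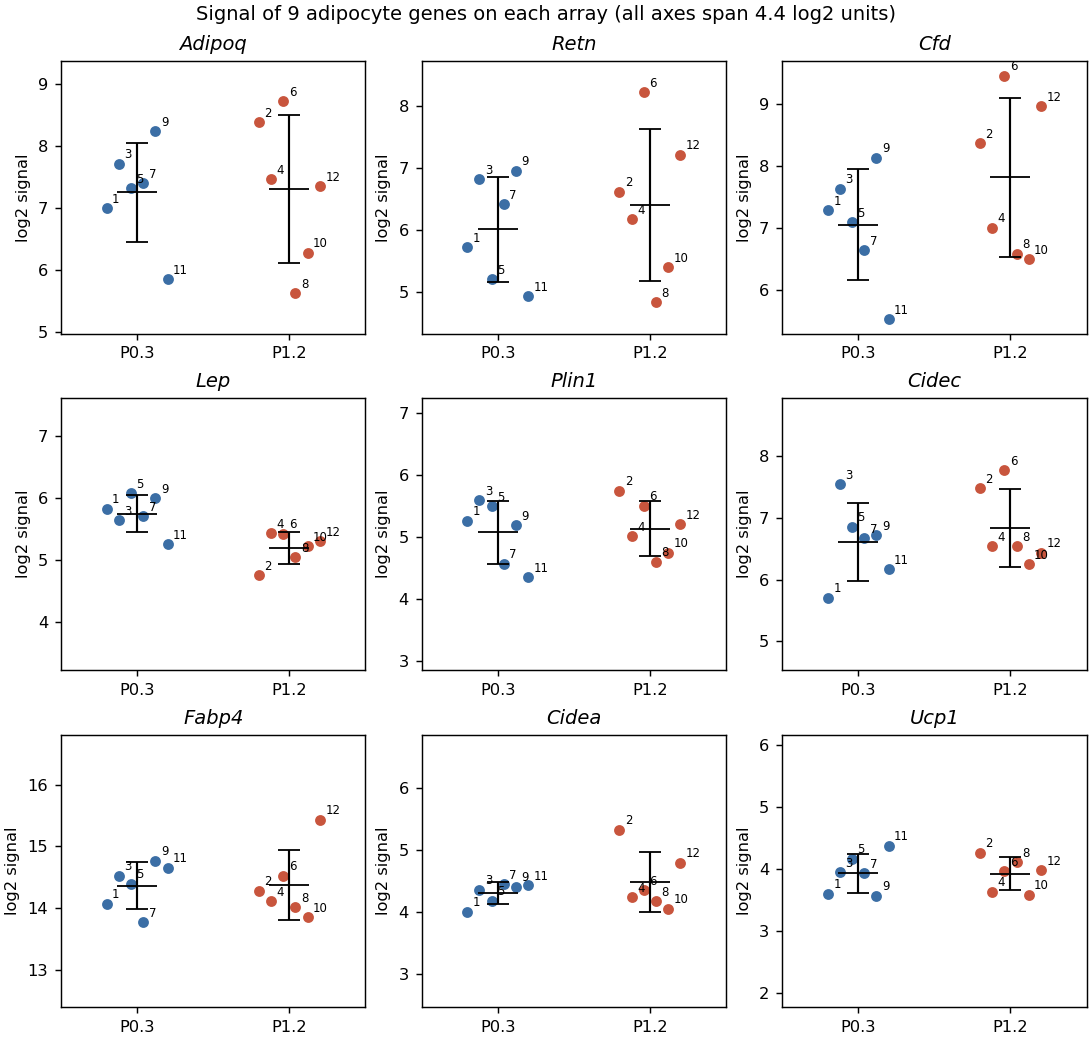
Log2 signal of the 9 adipocyte genes on each array, by diet (points are mice, numbered by replicate, and bars are the mean ± SD of 6 mice). Over all 12 arrays Adipoq, Retn and Cfd spread over 8.61-fold to 15.3-fold, and their ranges in the diets overlap. For Lep, 5 of the 6 P0.3 arrays lie above every P1.2 array.

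Plin1 encodes perilipin 1, the coat of the adipocyte's lipid droplet that holds lipases back until a hormone signal arrives. Its signals lay at the level of the receptors, 4.35 at the lowest and 5.23 at the median in the P0.3 group and 4.61 and 5.11 in the P1.2 group, with the highest value, 5.75, on P1.2 replicate 2. The groups overlapped, and the difference was 0.06 (standard error 0.24, exact permutation test, p = 0.816). Cidec, whose protein joins small lipid droplets into a large one, had signals of 5.70, 6.69 and 7.54 (lowest, median and highest) in the P0.3 group and of 6.24, 6.54 and 7.77 in the P1.2 group. Its difference was 0.22 (standard error 0.30, exact permutation test, p = 0.556), and the groups overlapped over most of their range. It ran from 0.036 without P1.2 replicate 6 to 0.41 without P0.3 replicate 3, and was 0.09 without P1.2 replicates 6 and 12.

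Fabp4 encodes a fatty acid carrier of adipocytes that macrophages and the endothelium of capillaries also make. It was the one member with bright signals, above 97.4% of all transcripts, from 13.78 to 14.77 with a median of 14.46 in the P0.3 group and from 13.86 to 15.43 with a median of 14.20 in the P1.2 group. The highest value was that of P1.2 replicate 12, and the groups overlapped. The difference was 0.01 (standard error 0.24, 95% interval -0.51 to 0.52, exact permutation test, p = 0.985), or -0.30 without P1.2 replicates 6 and 12.

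Cidea, a lipid droplet protein of brown and beige adipocytes, and Ucp1, which lets protons leak through the inner membrane of their mitochondria to give heat, stayed below 6.11 on all arrays. Cidea signals had a median of 4.38 and a highest value of 4.45 in the P0.3 group, and a median of 4.29 and a highest value of 5.33, that of P1.2 replicate 2, in the P1.2 group. Ucp1 signals were 3.57 to 4.37 and 3.59 to 4.26, and 4.78% of all transcripts were dimmer. The differences were 0.18 (standard error 0.20, exact permutation test, p = 0.459) and -0.01 (standard error 0.17, exact permutation test, p = 0.957). At signals this low, a change in either gene may not be detectable.

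Lep encodes leptin, the adipokine that tells the brain how much fat is stored and so restrains appetite. Its signal was 5.25 at the lowest, 5.76 at the median and 6.08 at the highest in the P0.3 group, and 4.75, 5.26 and 5.42 in the P1.2 group. All 6 P1.2 arrays lay below the median of the P0.3 group and 5 of the 6 P0.3 arrays above every P1.2 array, the exception being P0.3 replicate 11. The means were 5.74 ± 0.30 and 5.19 ± 0.26 (SD, n = 6 each). The difference was -0.55 (standard error 0.17, 95% interval -0.90 to -0.20), a signal ratio of 1.47. An exact permutation test of the diet labels gave p = 0.0087 (two-sided). With limma, the unadjusted p was 0.0040, and the adjusted p over all transcripts was 0.9999. The study's criteria were a change of more than 1.3-fold together with an unadjusted p below 0.05, and Lep met them in the full set of arrays and with each of the 12 arrays left out in turn, where the difference ran from -0.65 to -0.47. Without P1.2 replicates 6 and 12 it was -0.64. Since Lep, like Cidea and Ucp1, lay below the receptor level, the size of its difference in RNA is uncertain.

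At these criteria 1 of the 9 genes was lower and 0 were higher, and of all transcripts 1.36% were lower, 0.919% higher and 2.28% either. Among the 10337 transcripts that, like Lep, did not lie above the receptor level, 2.23% were lower. No transcript of the array had an adjusted p under 0.05 with limma, and 3.25% had an unadjusted p under 0.05. None of the 9 genes had groups without overlap, which 0.153% of all transcripts had. In RNA from whole pieces of muscle, fewer adipocytes and less RNA of a gene per adipocyte cannot be told apart.

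**Figure D2:**
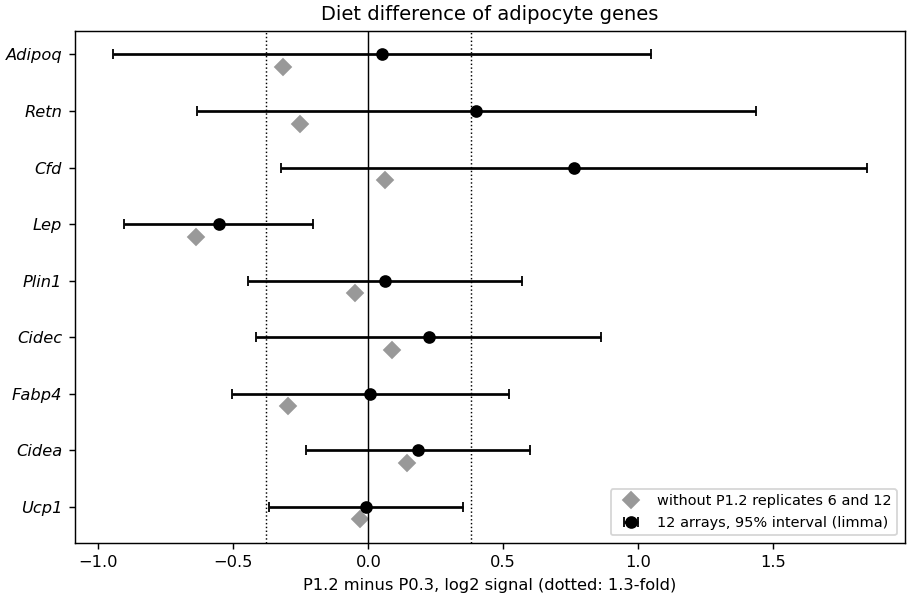
Difference P1.2 minus P0.3 in log2 signal for each gene over 12 arrays, with the 95% interval from limma, and the difference without P1.2 replicates 6 and 12 (diamonds, no interval drawn). Dotted lines mark the 1.3-fold threshold, and of the 9 intervals that of Lep, from -0.90 to -0.20, does not hold 0.

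The signals of Adipoq, Retn, Cfd, Plin1 and Cidec rose and fell together from piece to piece. P1.2 replicate 6 had the highest signals of Adipoq, Retn, Cfd and Cidec, and all 5 genes lay above their own median there, as they did on P1.2 replicate 2 and P0.3 replicate 3. On P0.3 replicate 11 and P1.2 replicates 8 and 10, all 5 lay below it. The highest and the lowest pieces thus came from both diets. These 5 genes were grouped after their values were seen, so their 10 correlations, which were all positive with r from 0.57 to 0.88 and a median of 0.72, are a description. Within the P0.3 group the 10 values ran from 0.33 to 0.92 and within the P1.2 group from 0.69 to 0.95.

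**Figure D3:**
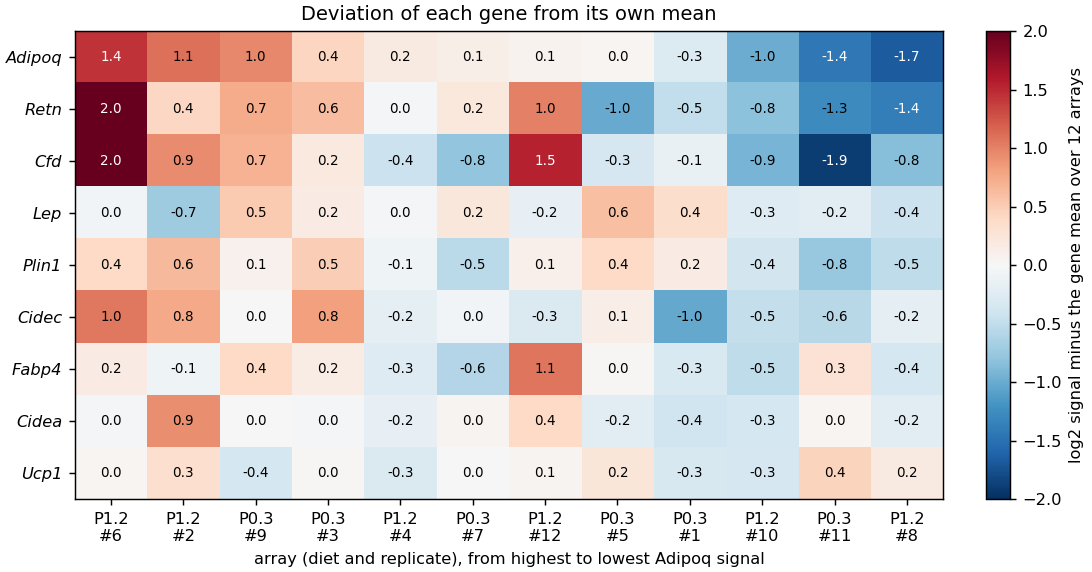
Deviation of each gene's log2 signal from its own mean over the 12 arrays, with arrays ordered from the highest Adipoq signal on the left to the lowest on the right. Red (above the mean) on the left and blue (below it) on the right run through Adipoq, Retn, Cfd, Plin1 and Cidec, while Lep is lowest on P1.2 replicate 2, which has the second highest Adipoq signal.

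Of the 36 pairs of the 9 genes, 5 had an adjusted p under 0.05 for Pearson's r (permutation test with 100000 resamples, two-sided, adjusted over the 36 pairs). Adipoq and Retn had r = 0.86 and Spearman's rho = 0.85 over the 12 mice (permutation p = 0.00033 and 0.0011, adjusted p = 0.0059 and 0.020), with r = 0.85 within the P0.3 group and 0.89 within the P1.2 group. Adipoq and Cfd had r = 0.81 and rho = 0.78 (permutation p = 0.0017 and 0.0040, adjusted p = 0.020 and 0.029), and 0.92 and 0.82 within the diets. Over all 12 arrays Retn and Cfd were the closest pair, with r = 0.88 and rho = 0.87 (permutation p = 0.00017 and 0.00052, adjusted p = 0.0059 and 0.019), and 0.75 and 0.95 within the diets. Without P1.2 replicates 6 and 12, r of Retn and Cfd was 0.76 (permutation p = 0.0093), below the 0.89 of Adipoq and Retn.

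Plin1, though dim, followed Adipoq with r = 0.78 and rho = 0.66 (permutation p = 0.0028 and 0.023, adjusted p = 0.025 and 0.141) and Cfd with r = 0.75 and rho = 0.79 (permutation p = 0.0050 and 0.0031, adjusted p = 0.036 and 0.028). Adipoq and Cidec had r = 0.69 and rho = 0.80 (permutation p = 0.012 and 0.0027, adjusted p = 0.071 and 0.028), so that this pair passed by rank alone.

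The 2 arrays farthest from the median of Adipoq were P1.2 replicate 8 and P0.3 replicate 11, both at its low end. Without them, r with Adipoq was 0.78 for Retn (permutation p = 0.0087), 0.74 for Cfd (permutation p = 0.014), 0.77 for Cidec (permutation p = 0.0088) and 0.60 for Plin1 (permutation p = 0.067), and 0 of the 36 pairs had an adjusted p under 0.05. The relation of Plin1 to Adipoq thus rested in part on these 2 arrays. Without P1.2 replicates 6 and 12, r with Adipoq was 0.89 for Retn and 0.87 for Cfd, and 3 of the 36 pairs had an adjusted p under 0.05. With a single array left out, 2 pairs passed without P0.3 replicate 11 or P1.2 replicate 6, 3 without P1.2 replicate 2, 8 or 10, and 4 to 7 without any of the others.

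**Figure D4:**
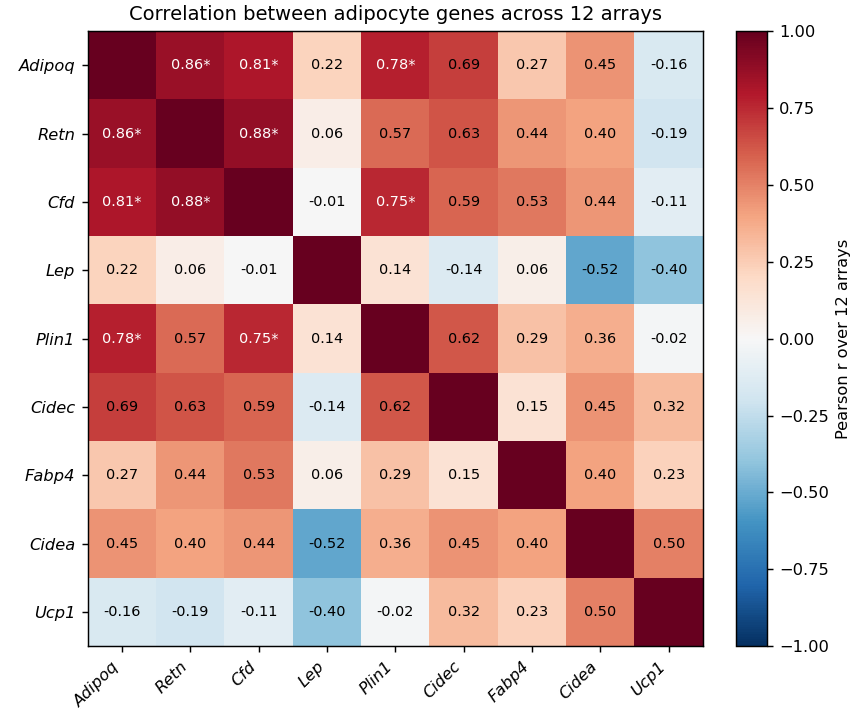
Pearson's r between the 9 genes over 12 arrays, with asterisks where the permutation p adjusted over the 36 pairs was under 0.05. The 5 marked pairs all lie among Adipoq, Retn, Cfd and Plin1, and r of Lep with the other genes runs from -0.52 to 0.22.

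Over all 12 arrays, Lep had lower r values with the other 3 adipokine genes than these had with each other. Its r with Adipoq was 0.22 over the 12 mice (rho = 0.18, permutation p = 0.488 and 0.574, adjusted p = 0.676 and 0.772), 0.74 within the P0.3 group and 0.08 within the P1.2 group, and the difference between the groups was not tested. This r depended on single arrays, with 0.56 without P1.2 replicate 2 and 0.04 without P1.2 replicate 8, and the other arrays left out singly gave 0.11 to 0.27. Taken as deviations from the diet means, r of Lep with Adipoq was 0.36. With Retn, r of Lep was 0.06 over the 12 mice, 0.29 within the P0.3 group and 0.36 within the P1.2 group. With Cfd it was -0.01 over the 12 mice, 0.76 within the P0.3 group (exact permutation p = 0.085) and 0.14 within the P1.2 group. Of the 8 pairs with Lep, 0 had an unadjusted permutation p under 0.05 over the 12 mice. P1.2 replicate 2 had the lowest Lep signal of all, 4.75, with an Adipoq signal of 8.38. In a limma fit with Adipoq as a covariate, the difference of Lep was -0.56 (standard error 0.16, adjusted p = 0.9999), against -0.55 without it, and 1.36% of all transcripts were lower in that fit. Adipoq itself differed by 0.05 between the diets, so the covariate could move the difference of Lep only little. The part of adipocyte RNA in the difference of Lep was not tested. Cfd, at 0.72 in the fit with the covariate (standard error 0.29, unadjusted p = 0.026, adjusted p = 0.9999), met the study's criteria in that fit, in which 0.946% of all transcripts were higher. Without the covariate Cfd did not meet them.

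Fabp4 followed Adipoq as weakly, with r = 0.27 and rho = 0.34 (permutation p = 0.406 and 0.289, adjusted p = 0.609 and 0.547). It rose instead with the mean of 8 genes of slow fibres, among them Myh7 and Tnni1, with r = 0.79 and rho = 0.78 (permutation p = 0.0010 and 0.0046, adjusted over 10 marker lists p = 0.0063 and 0.039), and this comparison was chosen after values were seen. The r was 0.86 within the P0.3 group, 0.81 within the P1.2 group, 0.80 without P1.2 replicates 6 and 12 and 0.70 without the 2 arrays farthest from the Fabp4 median. With 6 fibroblast and mesenchymal progenitor genes such as Pdgfra and Dcn, r was 0.84 (rho = 0.71, permutation p = 0.0013 and 0.012, adjusted p = 0.0063 and 0.039), within the diets 0.58 and 0.96, and without P1.2 replicates 6 and 12 it was 0.62. With the macrophage list it was 0.78 (rho = 0.62, permutation p = 0.0034 and 0.036, adjusted p = 0.0086 and 0.089) and with 4 red blood cell genes 0.78 (rho = 0.74, permutation p = 0.0021 and 0.0084, adjusted p = 0.0070 and 0.039). Without P1.2 replicates 6 and 12 these were 0.56 and 0.64. Marker lists of several cell types thus moved with Fabp4, and their part in its signal was not tested. With 6 endothelial genes, r was 0.49 (rho = 0.40, permutation p = 0.102, adjusted p = 0.203).

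**Figure D5:**
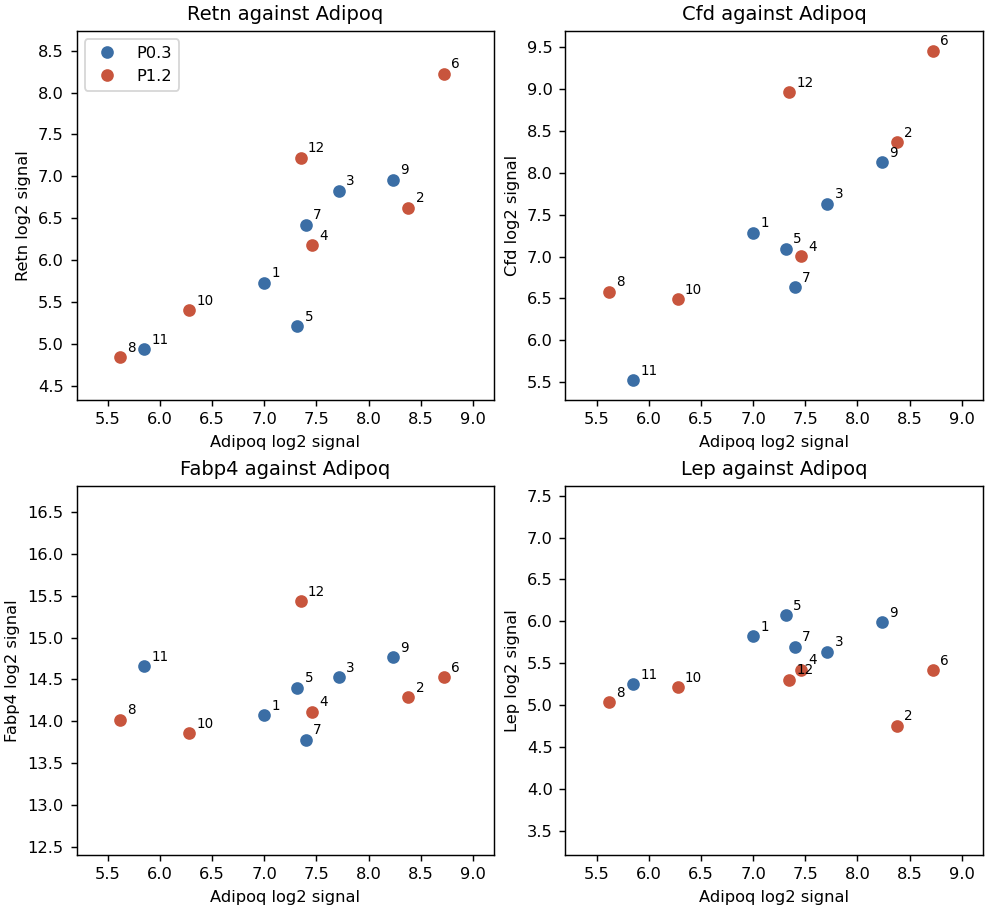
Signals of Retn, Cfd, Fabp4 and Lep against the Adipoq signal on the same array (points are mice, coloured by diet and numbered by replicate, and each vertical axis spans the same log2 distance). Retn and Cfd climb with Adipoq (r = 0.86 and 0.81), whereas Fabp4 (r = 0.27) and Lep (r = 0.22) do not line up with it.

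The means of the 10 marker lists of other cell types were set against Adipoq in the same way, and 0 of 10 had an adjusted permutation p under 0.05. The highest r was that of the macrophage list, 0.43 (rho = 0.45, permutation p = 0.165, adjusted p = 0.726), followed by the fibroblast list with r = 0.39 (rho = 0.59, permutation p = 0.212 and 0.047, adjusted p = 0.726 and 0.467). The slow fibre list had 0.05, the endothelial list -0.26, and the list of 5 epidermis genes, all of which stayed at the receptor level, -0.05. Of the 6 lymphocyte genes, 5 were likewise not above the receptor level.

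Among all other 22205 transcripts, 25 had r of 0.8 or more with Adipoq, or 0.113%, and Retn and Cfd were 2 of them. There were 4 transcripts with a higher r than Retn, 17 above Cfd, 41 above Plin1 and 143 above Cidec. Cidea, with r = 0.45, Fabp4 and Lep were exceeded by 1678, 4623 and 5617 transcripts, and Ucp1 (r = -0.16) by 15222. Genes outside the list with the highest r included Stk11ip (0.91), Mpv17l2 (0.90), Gpr83, Gm14137, Plekha8, Colec12, Trf, Gm20926 and Abhd6 (0.84). Trf encodes the iron carrier transferrin and Abhd6 a lipase of monoacylglycerol. Gpr83, Gm14137 and Gm20926 were not above the receptor level. They were picked from the highest of 22205 values over 12 arrays, and their r is a description.

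Of 30 further genes of white adipocytes, 1 rose and 0 fell by the study's criteria in the limma fit. Of all transcripts, 0.919% rose and 1.36% fell. The median difference of the 30 was 0.11, where that of all transcripts was -0.01. The higher gene was Thrsp, a regulator of lipid synthesis that muscle also expresses, with 8.44 ± 0.24 in P0.3 mice and 8.89 ± 0.49 in P1.2 mice (SD, n = 6 each). Its difference was 0.45 (standard error 0.21, unadjusted limma p = 0.044, adjusted p = 0.9999, exact permutation p = 0.080). Thrsp did not meet the criteria with the methods' test or with quantile normalization, and with single arrays left out it met them when P0.3 replicates 3 and 7 and P1.2 replicates 4, 8 and 10 were omitted singly, but not when any of the other 7 arrays was. Of the 30 genes, 8 were not above the receptor level, among them Lgals12 and Acvr1c. Lgals12, the gene of a galectin of adipocytes, had a difference of -0.42 (standard error 0.21) that did not meet the criteria with all arrays. It did with array weights (-0.49) and when P0.3 replicates 1 and 9 or P1.2 replicates 4 and 10 were omitted singly (-0.52 to -0.48). Pde3b (0.38) met them when P0.3 replicates 1 and 5 and P1.2 replicate 2 were omitted singly, and Plin4 (0.47) when P1.2 replicate 4 was. Their r with Adipoq was above 0 for 28 of 30, with a median of 0.37, where the median over all transcripts was 0.01. The share of all transcripts with r above 0 was not counted. Some of the 28 were close to 0, such as Dgat2 (r = 0.03) and Aqp7 (r = 0.04). The highest were the fatty acid desaturase gene Scd1 (r = 0.83), the gene Pck1 of glycerol synthesis (r = 0.75) and the activin receptor gene Acvr1c (r = 0.69). Scd1 ranged 15.9-fold between arrays, with 13.13 ± 0.85 in P0.3 mice and 12.55 ± 1.52 in P1.2 mice (SD, n = 6 each, exact permutation test, p = 0.429). Without P1.2 replicates 6 and 12 its difference was -1.40 and met the criteria. For the refits with other settings or fewer arrays, the share of all transcripts that met the criteria was not counted.

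Of 14 further brown adipocyte genes, several of them also muscle genes, 0 rose and 0 fell by the criteria in the limma fit. Of all transcripts, 0.919% rose and 1.36% fell. Of the 14 genes, 6 were not above the receptor level. Their median r with Adipoq was 0.03. The highest were Ebf2, a factor that marks brown fat precursors (r = 0.55), the potassium channel gene Kcnk3 (r = 0.23) and Pank1, which encodes an enzyme of coenzyme A synthesis (r = 0.18). With single arrays left out, Pank1 or Zic1 or both met the criteria when the array omitted was replicate 9 or 11 of P0.3 or replicate 6 or 8 of P1.2.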

How the data were processed

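RNA of the M. gastrocnemius of 12 mice was measured on Clariom S mouse arrays at a core facility. The main deposited table gives a log2 signal for each of 22206 transcripts, which the authors computed with the GCCN-SST-RMA algorithm in Affymetrix Expression Console (version 1.4), and a second table gives them with 2 decimals. No array was pooled, and the columns of the authors' group means, fold changes and p-values were not used. The genome build of the array annotation is not given in the sources used here.

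No further normalization was applied. The diets were compared over all 22206 transcripts with lmFit and eBayes of limma 3.58.1 (R 4.3.3), with Benjamini-Hochberg adjustment, and the difference is that of P1.2 from P0.3. The study's criteria, more than 1.3-fold with an unadjusted p below 0.05, define a call. The methods' test is Student's on the log2 signals. Correlations over 12 mice were tested with 100000 permutations (exact over all orders within a diet). The other steps ran in Python 3.11.15 with scipy 1.17.1, numpy 2.4.6, matplotlib 3.10.9 and pandas 2.3.3, and the tests were checked on simulated data.

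The 9 genes and all lists were chosen with earlier results of these data known. The text names the 9 genes, the called genes of each list and the 3 with the highest r with Adipoq, and, of the 10 other genes with the highest r with Adipoq, all but 1, which is not reported here. Other genes in the text are examples of lists or were picked with their values in view. Alternatives included the methods' test, Welch's variant of it (unequal variances), a robust and trended prior, array weights, quantile normalization, centring on the array median, the rounded table, unlogged signals, a filter on dim transcripts, Adipoq as a covariate, and each set of 11 arrays. Leaving out P1.2 replicates 6 and 12 together was added after the data were seen. Arrays give no read depth, and precision is set by how many there are. The median standard error of a difference was 0.18.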

Additional observations from a re-analysis of the deposited data

How the results depend on the processing

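Lep stayed lower at the study's criteria in each of the alternatives that could test it, with differences of -0.64 to -0.51, and with each array left out, at -0.65 to -0.47. The number of the 9 genes that met the criteria was 1, and it was 1 with any array left out. It was 0 with only transcripts above the receptor level, since Lep was then not tested, and 2 with Adipoq as a covariate, where Cfd also passed. Some differences that did not pass changed sign. Without P1.2 replicates 6 and 12 those of Adipoq, Retn, Fabp4 and Plin1 were -0.32, -0.25, -0.30 and -0.0482. With array weights and quantile normalization that of Fabp4 was -0.0335 and -0.0342 and that of Ucp1 0.00924 and 0.0202, and centring on the array median gave 0.0217 for Ucp1. With arrays left out in turn, differences ran from -0.23 to 0.39 for Adipoq, from 0.0379 to 0.72 for Retn, from 0.43 to 1.03 for Cfd, from 0.0362 to 0.41 for Cidec, from 0.0163 to 0.27 for Cidea, from -0.21 to 0.11 for Fabp4, from -0.0854 to 0.17 for Plin1 and from -0.07995 to 0.0807 for Ucp1. The cause was not tested.

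The number of pairs with an adjusted p under 0.05 was 5. It was 0 without the 2 arrays farthest from the median of Adipoq and 3 without P1.2 replicates 6 and 12, fits with fewer arrays, and 2 to 7 with each array left out. Without the 2 farthest arrays, r of Adipoq was -0.12 with Lep and 0.41 with Ucp1, and with arrays left out in turn it ran from 0.0434 to 0.56 for Lep and from -0.34 to 0.10 for Ucp1. Of the further white adipocyte genes, 1 met the criteria, 0 with the methods' test and with quantile normalization, and 0 to 3 with an array left out (Thrsp, Pde3b or Plin4 higher, Lgals12 lower). Of the brown ones 0 to 2 did (Pank1 or Zic1, higher). The share of all transcripts that met the criteria in these refits was not counted. For the marker lists against Adipoq the count stayed at 0 of 10 with quantile normalization, with deviations from the diet means and with each array left out. Other alternatives were not run for these lists. Each of the 9 genes has 1 row, so averaging rows of a symbol changes nothing. No paired analysis was possible because the mice of the 2 diets share no replicate numbers.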
